A study of Mus musculus with 12 samples.

Results

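Nduf genes, the nuclear genes named for NADH:ubiquinone oxidoreductase, or complex I, were examined in adipocytes that carried wild-type or mutant PPARγ. Of the 55573 genes in the count table, 51 had a symbol that starts with Nduf. The 2 rows marked as pseudogenes by the ending -ps were set aside, and 48 of the remaining rows had at least 10 counts summed over the libraries. These 48 members comprised 40 subunit genes and 8 genes of the Ndufaf assembly factors. The rule uses symbols and total counts, and the gene family itself was picked with earlier results of these data known. Of the 40 subunit genes 38 were annotated as protein-coding, and Ndufb4c and Ndufs6b were annotated as processed pseudogenes. The row just outside the minimum was the processed pseudogene Ndufa11b with 4 counts, and the rows just inside it were Ndufs3 with 10 and Ndufs6b with 13.

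The cells were the stromal vascular fraction of subcutaneous (inguinal) fat of C57BL/6 mice, differentiated in culture to adipocytes. All mice were homozygous at the PPARγ gene, for its wild-type form (WT), for the T166A form (TA), whose alanine cannot be phosphorylated, or for the T166D form (TD), whose aspartate carries a negative charge like that of a phosphorylated threonine. PPARγ is the nuclear receptor that directs adipogenesis, and the study asked how phosphorylation at this residue of its DNA-binding domain bears on lipid metabolism and beige adipocyte genes. The mutations were made in the germline with CRISPR-Cas9, so each cell type of the culture carried them, and WT littermates served as controls. Every culture received the same induction medium for 4 days, with 850 nM insulin, 1 nM triiodothyronine, 0.5 mM IBMX, 125 nM indomethacin and dexamethasone, whose dose the sources give in differing units, then insulin and triiodothyronine alone, and was harvested on day 8. Each genotype had 4 RNA-seq libraries. Depth was 18823619 to 20324286 counts in WT, 16950175 to 18182526 in TA and 16553324 to 18357864 in TD. The sources do not say whether the libraries of a genotype came from separate mice or cultures, so p-values measure only the spread between these libraries.

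Complex I is the entry point of electrons from NADH into the respiratory chain of the inner mitochondrial membrane. Its N module oxidises NADH, its Q module passes the electrons to ubiquinone, and its membrane arm, in a proximal and a distal part, pumps protons. Core subunits carry the flavin, the iron-sulfur clusters and the proton channels, and the accessory subunits surround and stabilise them. Assembly factors bind intermediates and leave before the complex is complete. The core subunits of the membrane arm are encoded by mitochondrial DNA as the mt-Nd genes, and all other parts are nuclear. In white adipocytes the capacity for oxidative phosphorylation rises during differentiation, and it is higher still in brown and beige adipocytes.

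Promoters of nuclear respiratory genes often hold sites for NRF1, for ETS factors such as GABP and for YY1, and short consensus words of these were looked for because the members moved together in TD. Windows from 250 bases before to 50 after the transcription start, taken from RefSeq on GRCm38.p6, were on hand for 40 of the 48 members and for 27025 genes in all. Each word was searched on both strands, and a match is a description of the letters only. The NRF1 word GCATGCGC was in 5 of the 40 windows, or 12.5%, against 2.81% of all windows. Of these 5, the 4 with the word within 120 bases before the start are shown, from 120 bases before the start up to the start, with the word in capitals. They lie at chr15:82354292-82354411 (- strand), chr2:36049339-36049458 (- strand), chr17:56717642-56717761 (+ strand) and chr4:24897963-24898082 (+ strand). The word overlaps its own reverse complement in Ndufa11 and Ndufaf4, where the capitals therefore run on.
Ndufa6: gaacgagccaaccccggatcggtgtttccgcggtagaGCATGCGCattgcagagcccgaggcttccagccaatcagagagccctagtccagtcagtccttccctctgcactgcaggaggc
Ndufa8: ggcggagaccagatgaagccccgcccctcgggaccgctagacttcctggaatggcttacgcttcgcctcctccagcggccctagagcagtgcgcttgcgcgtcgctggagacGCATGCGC
Ndufa11: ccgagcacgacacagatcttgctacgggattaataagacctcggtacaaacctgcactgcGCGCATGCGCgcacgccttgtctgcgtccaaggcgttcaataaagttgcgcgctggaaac
Ndufaf4: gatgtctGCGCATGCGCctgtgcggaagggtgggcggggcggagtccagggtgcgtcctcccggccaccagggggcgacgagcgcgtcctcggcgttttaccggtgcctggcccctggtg

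The YY1 word AAGATGGCG was in 6 of the 40 windows, or 15%, against 1.49% of all windows. All 6 matches lay after the start and on the sense strand. In 5 of the 6, Ndufaf8 being the exception, the ATG within the word was an annotated start codon in GENCODE M21, so the same letters are also the beginning of the reading frame. They are shown, in capitals, with at most 10 bases on each side because, of the 6 words searched, this one had the largest ratio of its share among the members to its share among all windows. The stretches lie at chr6:126849097-126849125 (- strand), chr11:120098934-120098962 (+ strand), chr3:51408915-51408943 (- strand), chr13:114388045-114388069 (- strand), chr13:73328433-73328459 (- strand) and chr10:80249463-80249491 (+ strand).
Ndufa9: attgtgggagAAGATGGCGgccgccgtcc
Ndufaf8: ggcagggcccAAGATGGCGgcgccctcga
Ndufc1: cctgcggaacAAGATGGCGccgtccgtag
Ndufs4: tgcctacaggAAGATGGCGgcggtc
Ndufs6: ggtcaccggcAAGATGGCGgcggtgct
Ndufs7: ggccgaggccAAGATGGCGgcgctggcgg

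The ETS word CCGGAAG was in 6 windows, or 15%, against 9.12% of all. The GC box GGGCGG was in 21 windows, or 52.5%, against 35.9% of all, and the CCAAT box in 14, or 35%, against 37.9%. The ERR word TCAAGGTCA, for the estrogen-related receptors, was in 0 of the 40 windows and in 0.407% of all. The windows of the members had a median GC content of 59.3%, against 52.7% over all genes, and GC-rich words are more frequent in GC-rich windows. Ndufb6, the subunit with the largest fall in TD, is shown over the 250 bases before its start at chr4:40279422-40279671 (- strand), with its ETS word and its 2 GC boxes, all on the antisense strand, in capitals.
Ndufb6: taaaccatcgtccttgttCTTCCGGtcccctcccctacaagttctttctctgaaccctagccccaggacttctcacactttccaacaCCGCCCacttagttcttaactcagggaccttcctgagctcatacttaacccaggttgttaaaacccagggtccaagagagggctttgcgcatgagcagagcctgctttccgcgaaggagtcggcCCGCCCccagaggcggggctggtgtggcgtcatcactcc

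Ndufb7 and Ndufaf1 carried the ETS word close to the start and are given as further examples, at chr8:83566638-83566757 (+ strand) and chr2:119662835-119662954 (- strand), from 120 bases before the start.
Ndufb7: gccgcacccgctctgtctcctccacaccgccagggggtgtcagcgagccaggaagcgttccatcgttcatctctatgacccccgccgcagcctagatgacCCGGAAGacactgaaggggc
Ndufaf1: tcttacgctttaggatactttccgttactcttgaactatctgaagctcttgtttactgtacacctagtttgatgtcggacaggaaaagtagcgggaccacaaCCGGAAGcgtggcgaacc

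Levels are given as CPM, the counts of a gene divided by the normalised library size and scaled to a common total. Fold changes are on the log2 scale with their standard error, from edgeR's quasi-likelihood test fitted to all genes and 12 libraries, and p-values were adjusted by Benjamini-Hochberg over the 15117 genes tested. A gene was called higher or lower at an adjusted p under 0.05. Of the 48 members 46 passed the filter on low counts and were tested, and Ndufs3 and Ndufs6b did not.

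Nearly all tested subunit genes were lower in TD than in WT adipocytes. Of 38, 36 were called lower, with a median log2 fold change of -0.68, where 14.2% of all tested genes were called lower and the median over all of them was 0.01. None was higher by edgeR, also at an unadjusted p under 0.05, or by DESeq2, where 15.1% of all tested genes were called higher by edgeR. At an unadjusted p under 0.05, 36 were lower, against 19.4% of all tested genes. The levels in TD ran from 49.6% of the WT level for Ndufb6 to 91.0% for Ndufa4l2. The libraries of the 2 genotypes did not overlap for 36 of the 38 subunit genes, with TD below WT, against 16.4% of all tested genes with TD below WT and 15.8% with TD above it. Ndufa12 and Ndufa4l2 were the exceptions.

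Summed over the 40 subunit genes, the level was 4704, 3893, 3862 and 4142 CPM in the WT libraries, 3669, 4361, 3220.4 and 4035 in TA and 2927, 2919, 2603 and 2370.0 in TD. The 4 TD sums lay below each WT and TA sum, while WT and TA overlapped. WT replicate 1 was the highest of its genotype for 36 of the 38 tested subunit genes and TD replicate 4 the lowest of the 12 libraries for 31. Without WT replicate 1 or without TD replicate 4 the count called lower stayed between 34 and 36, as it did without any other library.

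**Figure D1:**
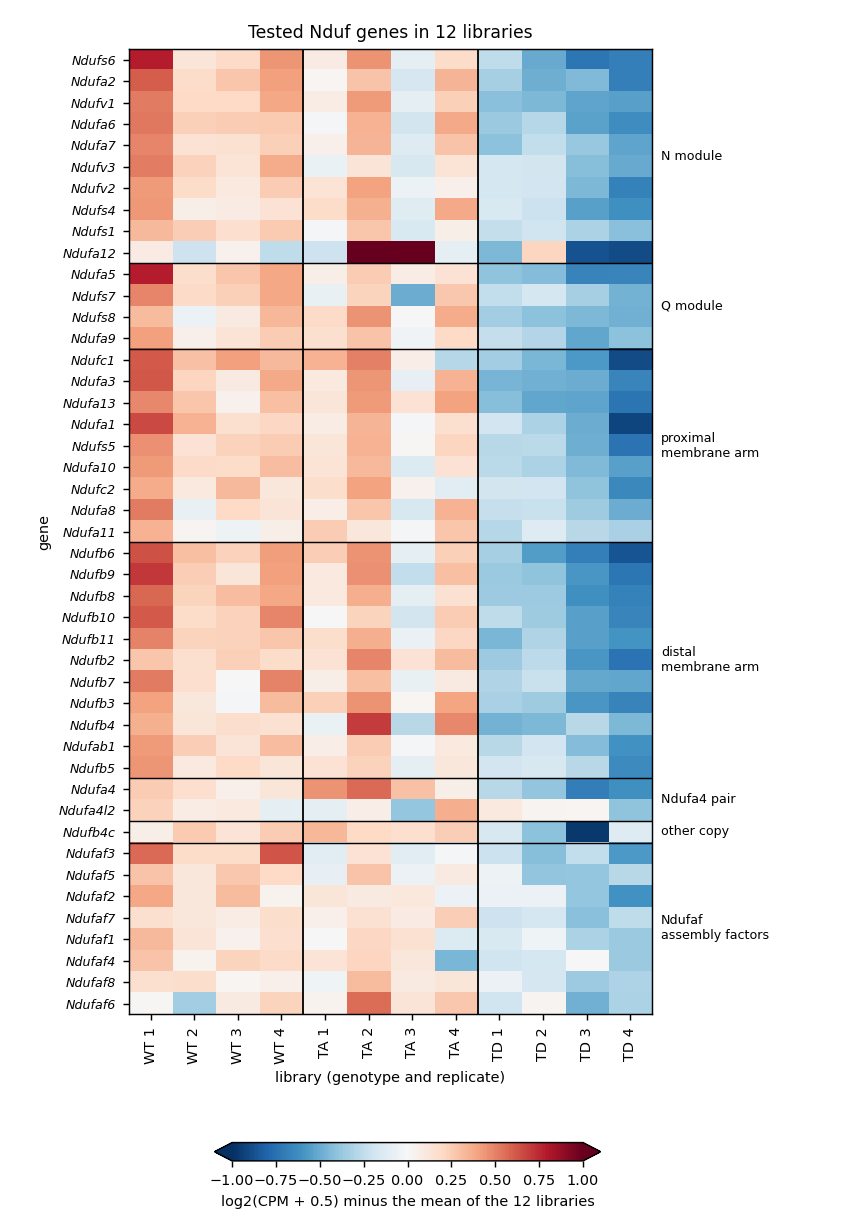
Heat map of 45 tested Nduf genes (rows, grouped by role) in the 12 libraries (columns), coloured by log2(CPM + 0.5) minus the mean of the gene over the 12 libraries. The TD columns are blue in nearly every row, WT replicate 1 is the reddest column, and Ndufa12 departs from its neighbours in TA replicates 2 and 3.

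The core subunits of the N module hold the flavin and most of the iron-sulfur clusters. Ndufv1, which binds NADH and the flavin, had 279, 223, 223 and 254 CPM in the WT libraries, 204, 261, 183 and 229 in TA and 145, 143, 135 and 133 in TD. Its level in TD was 56.8% of that in WT, a log2 fold change of -0.82 ± 0.10 (adjusted p = 9.24e-05). The TD libraries lay close together and below all others.

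Ndufv2, an iron-sulfur protein beside Ndufv1, had 150.0, 127, 119 and 133 CPM in the WT libraries, 123, 147, 107 and 115 in TA and 98.8, 97.4, 81.5 and 69.6 in TD. Ndufs1, the largest subunit, which carries several clusters, had 295, 279.6, 264 and 282 CPM in the WT libraries, 232, 285, 211 and 244 in TA and 199, 205, 189 and 176 in TD. Both fell in TD relative to WT, by 0.61 and 0.54 on the log2 scale, with no overlap between the libraries. Relative to TA they fell by 0.50 and 0.34, and the call of Ndufs1 was lost without TA replicate 2 (adjusted p = 0.0594) or TD replicate 4 (adjusted p = 0.0558).

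Among the accessory subunits of the N module, the largest fall in TD was that of Ndufs6, a small zinc-binding protein. Its libraries had 43.4, 27.3, 28.7 and 34.2 CPM in the WT libraries, 26.6, 34.3, 23.5 and 28.6 in TA and 20.9, 17.5, 15 and 15.4 in TD. The TD level was 51.5% of WT, a log2 fold change of -0.96 ± 0.15 (adjusted p = 0.000363), and WT replicate 1 was well above the other WT libraries. Mrpl36 shares 3.34% of its exon bases on the opposite strand, had 5632 counts against 5774 for Ndufs6, and was itself lower in TD, by 0.38. Over the module, 9 of 10 genes were called lower, against 14.2% of all tested genes, with a median of -0.65. Ndufa2, Ndufa6, Ndufa7, Ndufs4 and Ndufv3, the other accessory genes called, had log2 fold changes of -0.87, -0.78, -0.65, -0.56 and -0.64.

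Ndufa12, which joins the N module late in assembly, was the one gene of the module that was not called. It had 14.8, 12, 14.4 and 11.7 CPM in the WT libraries, 12, 40.2, 31.4 and 13.1 in TA and 10.1, 16.3, 7.4 and 7.27 in TD. TA replicates 2 and 3 stood far above TA replicates 1 and 4, and TD replicate 2 above the other TD libraries. TD minus WT was -0.36 ± 0.34 (adjusted p = 0.452) and TA minus WT 0.87 ± 0.33 (adjusted p = 0.102). With 1 library left out, TD minus WT ran from -0.68 without TD replicate 2 to -0.23 without TD replicate 3 or 4. For TA minus WT the lowest such value was 0.51, with TA replicate 2 left out. The difference was called when TA replicate 1 was left out (1.09, adjusted p = 0.0402) and when TA replicate 4 was (1.07, adjusted p = 0.0474). Without the filter on low counts both passed, at adjusted p-values of 0.0368 for TD and 1.52e-09 for TA. TD minus TA was -1.23 ± 0.33 with an adjusted p of 0.019, a call lost without TA replicate 2 (log2 fold change -0.87, adjusted p = 0.0864), TD replicate 3 (-1.10, adjusted p = 0.0645) or TD replicate 4 (-1.10, adjusted p = 0.0669). The genes on either side of it on chromosome 10, Nr2c1 and Tmcc3, showed no such split, with 206 to 315 and 642 to 1054 counts per library.

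In the Q module the core subunit Ndufs7 lies near the site where ubiquinone is reduced, and Ndufs8 holds iron-sulfur clusters that lead to it. Ndufs7 had 102, 83.1, 86 and 95.3 CPM in the WT libraries, 69.2, 85.3, 51.5 and 88.2 in TA and 61.4, 64.6, 57.7 and 52.4 in TD. Ndufs8 had 59.3, 45.7, 50.7 and 60.1 CPM in the WT libraries, 54.3, 65.3, 47.5 and 61.5 in TA and 37.2, 35.7, 34.7 and 33.9 in TD. Both fell in TD relative to WT, by 0.63 and 0.61. Against TA, Ndufs8 fell by 0.69 (adjusted p = 0.000368), while for Ndufs7, with TA replicate 3 below the TD libraries, the difference was -0.32 ± 0.13 (adjusted p = 0.115). Without TA replicate 3 it was -0.46 and called (adjusted p = 0.00439), as it was without the filter on low counts (adjusted p = 0.0081).

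Ndufa5, an accessory subunit of the Q module, had the largest fall there, with 54.3, 35.5, 38.2 and 41.2 CPM in the WT libraries, 32.7, 37.6, 33 and 34.8 in TA and 23.6, 23.1, 19.5 and 19.6 in TD. The log2 fold change in TD was -0.98 ± 0.12 (adjusted p = 8.18e-05), and all TD libraries lay below all others. Ndufa9, the other accessory gene of the module, fell by 0.58. All 5 tested genes of the Q module were called lower in TD, against 14.2% of all tested genes, with a median of -0.61.

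Ndufs3, another core subunit of the Q module, had 0 counts in 8 of the 12 libraries and 10 in all, which is not readable as its expression. It lies at chr2:90894634-90904827 (GRCm38). Its neighbours C1qtnf4, Kbtbd4, Ptpmt1, Celf1 and Rapsn had 0, 1, 0, 1 and 1 counts in all, while Mtch2 and Psmc3, which flank this block, had 25845 and 19157. The cause of the gap was not tested, and Ndufs3 is counted with the members that could not be tested.

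The proximal membrane arm was represented by 9 accessory genes. All 9 were called lower in TD, against 14.2% of all tested genes, with a median of -0.71. Ndufc1, a small membrane subunit, fell most and had 45.6, 36.5, 39.6 and 37.3 CPM in the WT libraries, 38, 42.2, 31.1 and 24.2 in TA and 23.2, 21.5, 19.7 and 15.7 in TD. Its TD level was 50.5% of WT (log2 fold change -0.99 ± 0.15, adjusted p = 0.000268). TA replicate 4 lay near the TD libraries and apart from the other TA libraries.

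Ndufa11, which braces the junction of both parts of the membrane arm, had the smallest fall of all subunit genes called, with 57.4, 46, 43.6 and 46.9 CPM in the WT libraries, 53.8, 48.9, 44.7 and 54.8 in TA and 36.9, 41.2, 37.1 and 35.9 in TD. The log2 fold change was -0.36 ± 0.09 (adjusted p = 0.00885), and TD still lay below WT in every library. Between them lay Ndufa3 at -0.88, Ndufa13, also known as GRIM-19, at -0.84, Ndufa1 at -0.82, Ndufs5 at -0.71, Ndufa10 at -0.67, Ndufc2 at -0.58 and Ndufa8 at -0.53.

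The distal membrane arm had 11 genes, and all 11 were called lower, against 14.2% of all tested genes, with a median of -0.71. Ndufb6, whose promoter is shown above, had the largest fall of all members. Its libraries had 69.4, 55.1, 52.3 and 59.7 CPM in the WT libraries, 52.9, 61, 41.6 and 52.6 in TA and 35.3, 30.1, 27.6 and 24.2 in TD. TD stood at 49.6% of WT (log2 fold change -1.01 ± 0.13, adjusted p = 9.24e-05), and the highest TD library was below the lowest WT and TA libraries. A share of 39% of its exon bases is also annotated to Smim27 on the opposite strand, which had 463 counts in all against 10294 for Ndufb6.

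Ndufb11, Ndufb2, Ndufb8 and Ndufb9, which also share exon bases with other genes, had log2 fold changes of -0.79, -0.71, -0.88 and -0.90, and Ndufb3, Ndufb7 and Ndufb10 ones of -0.69, -0.70 and -0.84. Ndufb5 had the smallest fall of the distal arm, with 94.1, 74.1, 79.8 and 75.6 CPM in the WT libraries, 76.7, 81.4, 64.8 and 75.1 in TA and 60.7, 61.9, 57.1 and 44.5 in TD. The log2 fold change was -0.53 ± 0.11 (adjusted p = 0.00173). The TD libraries lay below all WT and TA libraries. Mrpl47 shares 12.3% of its exon bases on the opposite strand, had 3614 counts against 15497, and fell in TD by 0.61. Ndufab1, the mitochondrial acyl carrier protein that also serves fatty acid synthesis, fell by 0.65. Ndufb4 had the lowest level per length of the tested members and fell by 0.67 (adjusted p = 0.019), a call lost without WT replicate 1 (adjusted p = 0.0603) or TD replicate 4 (adjusted p = 0.0501). Its processed pseudogene Ndufb4c, with 459 counts, could share reads with it, so both are uncertain, and Ndufb4c fell by 0.71 with an adjusted p of 0.0388. That call was lost in the fit of 2 genotypes (adjusted p = 0.0588), with library totals (0.0609), without the filter (0.0937), and without TD replicate 2 or 3 or any 1 of the WT libraries (0.0566 to 0.118).

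Sorted by kind, all 6 tested core subunits and 28 of 29 accessory subunits were called lower in TD, with medians of -0.61 and -0.71. Over all tested genes 14.2% were called lower. The medians of the 4 modules ran from -0.61 to -0.71. Differences between modules, and between core and accessory subunits, were not tested.

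**Figure D2:**
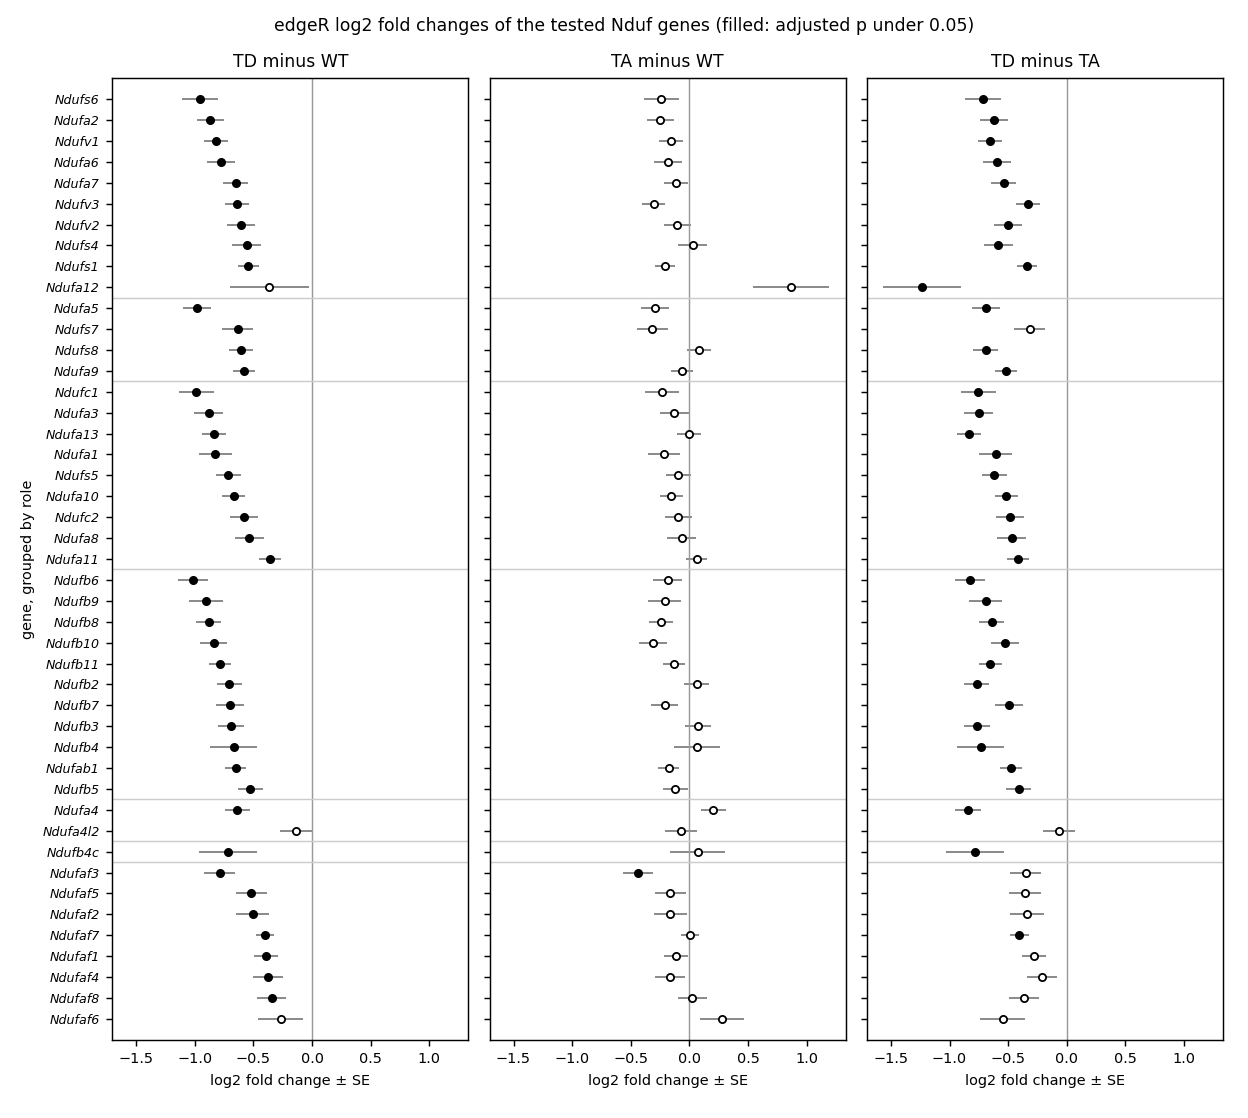
Log2 fold change with its standard error (x axis) for 45 tested Nduf genes (y axis, grouped by role from the N module at the top to the Ndufaf assembly factors at the bottom) in the 3 comparisons, with filled points for an adjusted p under 0.05. In TD minus WT, 42 points are filled and all 45 lie left of 0, whereas in TA minus WT only Ndufaf3 is filled.

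Ndufa4 and Ndufa4l2 share a name with complex I and are paralogs. Ndufa4 is now regarded as a subunit of cytochrome c oxidase, and Ndufa4l2 is known as a gene induced by hypoxia that lowers complex I activity. Ndufa4 had 137, 128, 118 and 124 CPM in the WT libraries, 156, 169, 140.0 and 119 in TA and 94, 86.7, 70.7 and 74.6 in TD. It fell in TD by 0.64 relative to WT (adjusted p = 0.00050) and by 0.84 relative to TA (adjusted p = 9.63e-05), with TD below all other libraries.

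Ndufa4l2 had 395, 354, 359.7 and 314 CPM in the WT libraries, 313, 352, 256 and 432 in TA and 359, 342, 340.3 and 254 in TD. The 3 genotypes overlapped, and the difference was -0.14 ± 0.14 in TD relative to WT (adjusted p = 0.492) and -0.06 ± 0.14 relative to TA (adjusted p = 0.788), where the sign turned to 0.09 without TA replicate 4. Per kilobase of exon Ndufa4l2 was the highest of all members, at 325 CPM per kb in WT, ahead of Ndufb9 at 196. The ratio of Ndufa4l2 to Ndufa4 per length was 3.65, 3.48, 3.83 and 3.19 in the WT libraries, 2.53, 2.62, 2.31 and 4.58 in TA and 4.82, 4.97, 6.07 and 4.29 in TD. TD lay above WT in every library, and TA replicate 4 stood apart from the other TA libraries. This ratio was looked at after its values were seen and was not tested.

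**Figure D3:**
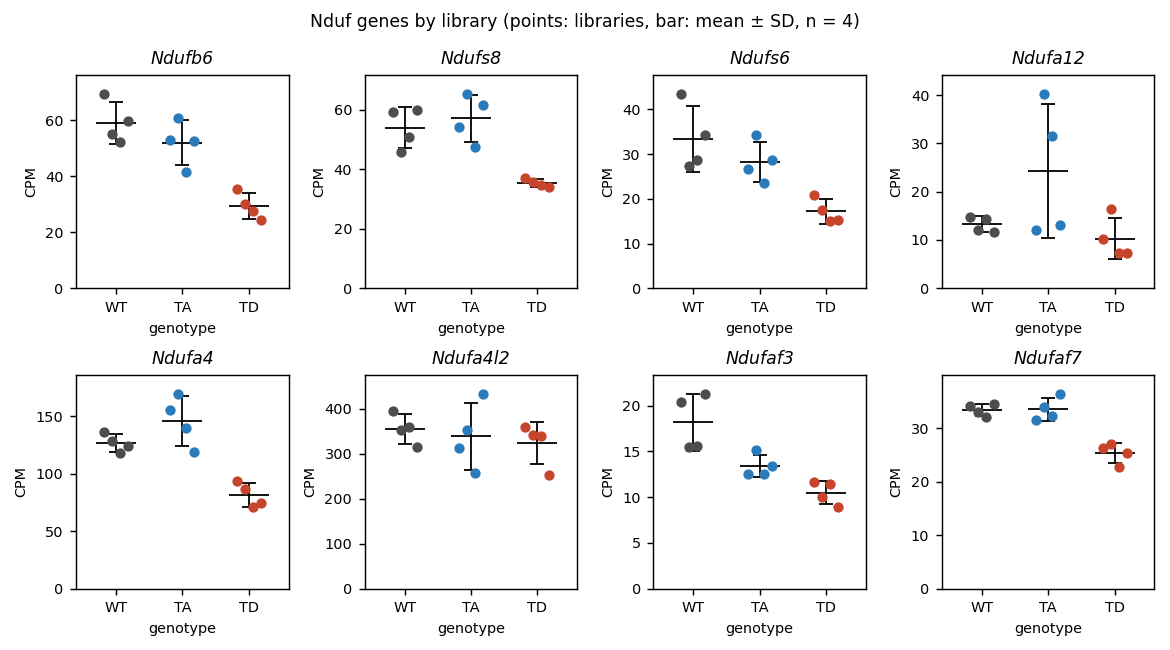
CPM of 8 Nduf genes by genotype (x axis), with points for libraries and a bar for the mean ± SD (n = 4). TD lies below WT and TA for Ndufb6, Ndufs8, Ndufs6, Ndufa4, Ndufaf3 and Ndufaf7, while Ndufa4l2 overlaps and Ndufa12 is split within TA.

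Over the tested members the WT levels ranged from 3.47 CPM per kb for Ndufb4 to that of Ndufa4l2, with a median of 49.7 for the 38 subunit genes and 7.83 for the 8 Ndufaf genes. The Nduf subunit genes thus differed widely in RNA level per length, also outside the Ndufa4 pair, with Ndufb9 at 196 and Ndufb2 at 5.91. The assembly factors were mostly in the lower part of the range. Exon lengths count all annotated exons, so a gene with long minor transcripts appears lower. Among neighbours in this order, Ndufb3, Ndufb11 and Ndufa2 had 137 ± 17.7, 135 ± 12.7 and 133 ± 17.3 CPM per kb (SD, n = 4) and did not differ beyond their spread.

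**Figure D4:**
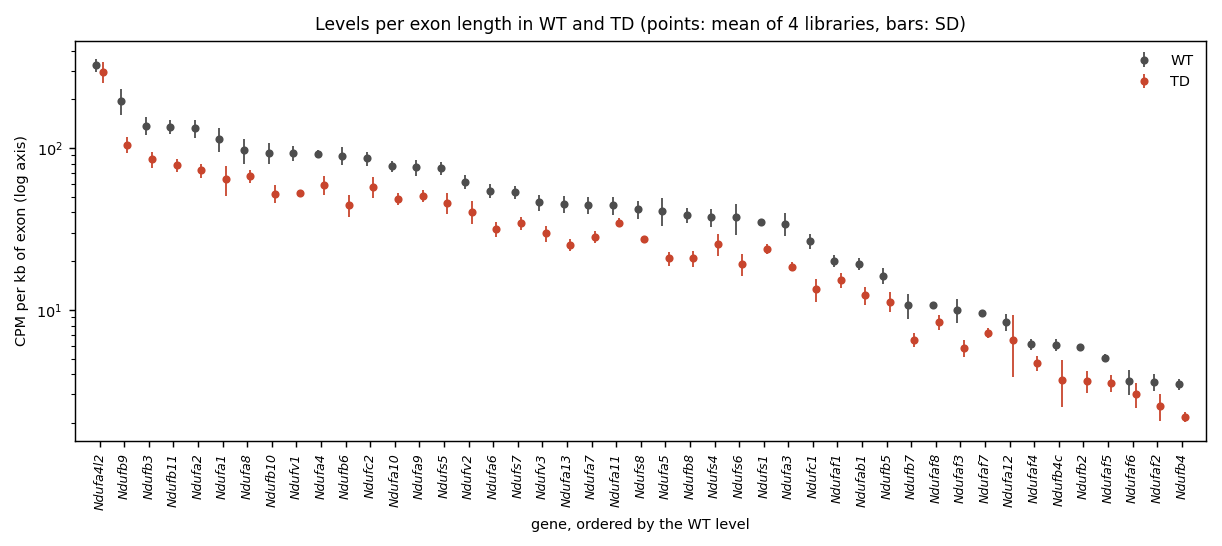
CPM per kb of exon (log axis) of 45 tested members in WT and TD, ordered by the WT level, with points for the mean of 4 libraries and bars for the SD. The TD points lie under the WT points throughout, least so for Ndufa4l2, and 7 of the 8 Ndufaf genes lie in the lowest 11 places with Ndufaf1 above them.

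Most Ndufaf assembly factors also fell in TD. Of 8, 7 were called lower than in WT, against 14.2% of all tested genes, with a median of -0.40. Summed over the 8 genes the level was 149, 130.2, 134 and 142 CPM in WT, 124, 141, 128 and 121 in TA and 108, 108, 98.2 and 93.1 in TD. The TD sums lay below all others, and a difference in size from the fall of the subunits was not tested. The count fell to 4 without WT replicate 1 and without TD replicate 4, where Ndufaf2, Ndufaf4 and Ndufaf8 missed the threshold.

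Ndufaf3 works with Ndufaf4 on the early Q module, and it was the one member called in TA. It had 20.4, 15.5, 15.6 and 21.3 CPM in the WT libraries, 12.5, 15.1, 12.6 and 13.4 in TA and 11.6, 10.0, 11.4 and 8.97 in TD. TD was below TA and TA below WT in every library. The log2 fold change was -0.79 ± 0.13 in TD relative to WT (adjusted p = 0.000465) and -0.44 ± 0.13 in TA relative to WT (adjusted p = 0.0377), while TD minus TA was -0.35 ± 0.13 (adjusted p = 0.0791). The call in TA was lost in the fit of those 2 genotypes alone (adjusted p = 0.0589) and without WT replicate 1, WT replicate 4, TA replicate 1, 3 or 4, or TD replicate 2, with adjusted p-values of 0.0503 to 0.124. Impdh2 shares 2.65% of the exon bases of Ndufaf3 on the opposite strand and had 6200 counts against 3093, so without the strand setting the count of Ndufaf3 is uncertain. Impdh2 itself was higher in TD, by 0.32 (adjusted p = 0.0191).

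Ndufaf4 had 25.6, 21.4, 24.4 and 24 CPM in the WT libraries, 23, 24.4, 22.7 and 15.1 in TA and 18.2, 18.5, 20.8 and 16.1 in TD. It fell in TD by 0.38 (adjusted p = 0.0392), and TA replicate 4 was the lowest of the 12 libraries. The call was lost with library totals (adjusted p = 0.0796) and without any 1 of TD replicates 1, 2 and 4 or WT replicates 1, 3 and 4 (adjusted p of 0.0713 to 0.122). TD minus TA was -0.21 ± 0.13 (adjusted p = 0.293). Ndufaf1, a part of the assembly complex of the membrane arm, had 33.7, 29.3, 27.6 and 30.1 CPM in the WT libraries, 26.7, 30.9, 29.8 and 24.3 in TA and 24, 26, 21.3 and 20.5 in TD. It fell by 0.39 (adjusted p = 0.00827) with TD below WT throughout, and TD minus TA was -0.28 ± 0.10 (adjusted p = 0.0687).

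Ndufaf2 is a paralog of Ndufa12 and is replaced by it during assembly. It had 12.1, 9.88, 11.5 and 9.37 CPM in the WT libraries, 9.94, 9.72, 9.85 and 8.72 in TA and 8.74, 8.73, 6.87 and 5.8 in TD, and fell by 0.51 (adjusted p = 0.0141). A non-coding gene with 0 counts, B230220B15Rik, covers 65.6% of its exon bases on the opposite strand. Its TA libraries lay between 8.72 and 9.94 CPM, with no split like that of Ndufa12, and TD minus TA was -0.34 ± 0.14 (adjusted p = 0.116).

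Ndufaf5, which hydroxylates Ndufs7, had 9.49, 8.39, 9.42 and 8.93 CPM in the WT libraries, 7.25, 9.53, 7.4 and 8.22 in TA and 7.44, 5.77, 5.8 and 6.27 in TD. Ndufaf8, its partner, had 9.24, 9.39, 8.37 and 8.55 CPM in the WT libraries, 7.95, 10.4, 8.79 and 9.0 in TA and 7.89, 7.28, 6.28 and 6.57 in TD. Ndufaf5 fell by 0.52 (adjusted p = 0.00814) and Ndufaf8 by 0.34 (adjusted p = 0.0494), so Ndufaf8 only just passed. It missed the threshold in 5 of the 7 other settings that leave no library out. Its call was also lost without any 1 WT library, TA replicate 1, 3 or 4, or TD replicate 2, 3 or 4. The adjusted p-values were then 0.0502 to 0.139. TD minus TA was -0.36 ± 0.13 (adjusted p = 0.0779) for Ndufaf5 and -0.37 ± 0.13 (adjusted p = 0.0564) for Ndufaf8.

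Ndufaf7, an arginine methyltransferase, had 34.2, 33, 32.1 and 34.5 CPM in the WT libraries, 31.6, 34, 32.2 and 36.3 in TA and 26.3, 26.9, 22.7 and 25.4 in TD. The WT and TA libraries overlapped and TD lay below both, with log2 fold changes of -0.40 ± 0.08 against WT (adjusted p = 0.00144) and -0.40 ± 0.08 against TA (adjusted p = 0.00264). Ndufaf6, with low counts, had 4.46, 3.38, 4.76 and 5.26 CPM in the WT libraries, 4.56, 6.76, 4.9 and 5.45 in TA and 3.8, 4.53, 3.03 and 3.46 in TD. Its difference was -0.27 ± 0.19 against WT (adjusted p = 0.321) and -0.55 ± 0.19 against TA (adjusted p = 0.0603), and it was not called in either.

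The comparison of TA with WT asked whether a residue that cannot be phosphorylated alters the same genes. For the subunit genes 0 of 38 were called lower and 0 higher, where 4.41% of all tested genes were called lower and 6.72% higher. The median was -0.12, against -0.01 over all genes, and 29 of the 38 values were below 0. At an unadjusted p under 0.05, 7 subunit genes were lower, against 11.2% of all tested genes. At that threshold 1 was higher, for which the share of all tested genes was not tallied. DESeq2 called 1 subunit gene lower. The libraries of TA lay wholly below WT for 0 subunit genes, where this held for 5.85% of all tested genes, and 7.71% lay wholly above. Among the assembly factors 1 of 8 was called, Ndufaf3, with a median of -0.14. The subunit levels in TA ran from 80.2% of WT for Ndufs7 to 183% for Ndufa12, and Ndufaf3 was at 73.9%. TA replicate 3 was the lowest of its genotype for 32 of the 38 subunit genes and TA replicate 2 the highest for 28.

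The comparison of TD with TA set both mutants side by side. The WT libraries were in the same fit, so they entered its filter, scaling and estimate of the spread. Of the 38 subunit genes 36 were called lower in TD, where 9.37% of all tested genes were called lower and 7.33% higher, with a median of -0.61 against 0.02 over all genes. Ndufs7 and Ndufa4l2 were not called. The libraries did not overlap for 33 of the 38, with TD lower, against 10.6% of all tested genes with TD lower and 9.32% with TD higher. Of the assembly factors 1 of 8 was called lower, Ndufaf7, with a median of -0.35, and the libraries did not overlap for 4 of 8. At an unadjusted p under 0.05, 7 of the 8 were lower, against 15.5% of all tested genes, and DESeq2 called 3. The comparisons of TD and TA with WT share the WT libraries, so their calls are not independent of each other.

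The scaling bore on the direction of calls over all genes. With plain library totals in place of TMM, the share of lower calls among all called genes was 35.4% in TD minus WT and 35.3% in TD minus TA, against 48.5% and 56.1% with TMM. The subunit genes remained lower under it, with 35 of 38 called in TD minus WT at a median of -0.61 and 34 of 38 in TD minus TA at a median of -0.53. Of all 15117 tested genes, 1558 and 982 were called lower under it, and their medians were 0.08 and 0.10.

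The mt-Nd genes supply the core of the membrane arm from the mitochondrial genome. In TD relative to WT 6 of 7 passed as lower, with a median of -0.88, in TA relative to WT 1 and in TD relative to TA 2, where 14.2%, 4.41% and 9.37% of all tested genes were called lower. For TD and WT the count was 5 without the filter on low counts and 7 when the replicate number was a block in the fit. For TA and WT it was 2 under DESeq2, library totals or the replicate block, 5 without the filter on low counts and 0 in the fit of 2 genotypes. For TD and TA it was 3 under DESeq2 or the replicate block, 5 without the filter and 1 with library totals or in the fit of 2 genotypes. mt-Nd1 had 5307, 3731, 4449 and 4765 CPM in the WT libraries, 4429, 4062, 3654 and 1947 in TA and 2676, 2532, 2149 and 2218 in TD. Its log2 fold change in TD was -0.93 ± 0.19 (adjusted p = 0.00177), and TA replicate 4 lay below the TD libraries. mt-Nd2 had 3156, 2779, 3085 and 2857 CPM in the WT libraries, 2718, 2741, 2220.2 and 1271 in TA and 1961, 1856, 1481 and 1404 in TD, with a fall of 0.83 in TD.

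mt-Nd4, a proton-pumping subunit, had 2981, 2406, 2477 and 2755 CPM in the WT libraries, 2262, 2497, 1811 and 1456 in TA and 1628, 1586, 1364 and 1356 in TD. mt-Nd5, another, had 5373, 5163, 5409 and 5158 CPM in the WT libraries, 4469.9, 4627, 3482 and 2789 in TA and 2891, 2830.1, 2761 and 2745 in TD. Both were lower in TD on the fitted average, against WT at -0.84 ± 0.14 and -0.91 ± 0.13, and against TA at -0.44 ± 0.14 and -0.45 ± 0.13. TA replicate 4 lay below TD replicates 1 and 2 for both genes, and the WT libraries lay above all TD libraries. mt-Nd5 was the one called in TA relative to WT, at -0.46 ± 0.13 (adjusted p = 0.0263), a call lost without TA replicate 3 (adjusted p = 0.0595), WT replicate 1 (0.0593) or WT replicate 3 (0.0544) and in the fit of those 2 genotypes alone (0.0683).

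mt-Nd6, the one gene of this group on the light strand of the mitochondrial genome, had 539.5, 512, 599 and 369.6 CPM in the WT libraries, 537, 513, 447 and 167 in TA and 301, 269, 291 and 239 in TD, and fell by 0.88 in TD (adjusted p = 0.0145). mt-Nd4l had 1.35, 0.993, 0.842 and 1.04 CPM in the WT libraries, 0.994, 0.615, 0.724 and 0.611 in TA and 0.511, 0.431, 0.479 and 0.41 in TD, and fell by 1.19 (adjusted p = 0.0109). mt-Nd3 had 2.75, 1.74, 1.88 and 1.32 CPM in the WT libraries, 2.52, 2.09, 2.23 and 0.945 in TA and 1.59, 1.35, 0.692 and 0.528 in TD, and was not called (log2 fold change -0.88 ± 0.38, adjusted p = 0.0914), although it was with the replicate block (adjusted p = 0.0284) or without TD replicate 1 (adjusted p = 0.0459). mt-Nd3 and mt-Nd4l had few counts at these levels. TA replicate 4 was the lowest TA library for all 7 genes. Without it, 5 of the 7 passed as lower in TD relative to TA, and without TA replicate 1 or 2 or TD replicate 3 or 4 none did.

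Assembly factors without an Ndufaf name were counted from a separate list, of which 12 were in the table. In TD relative to WT 8 of the 12 were called lower and 0 higher, with a median of -0.38. In TA relative to WT 1 was called lower and in TD relative to TA 4. Over all tested genes 14.2%, 4.41% and 9.37% were called lower in these comparisons, and 15.1% higher in TD relative to WT. Nubpl, which delivers iron-sulfur clusters to complex I, had the largest fall in TD, of 0.77, and was the one called in TA, by 0.41. Acad9, a partner of Ndufaf1, was 0.06 ± 0.07 in TD (adjusted p = 0.541). The other complexes of the respiratory chain fell as well in TD relative to WT, where 14.2% of all tested genes were called lower. Of complex II 4 of 4 genes were called lower, at a median of -0.65, of complex III 9 of 9 at -0.72, of complex IV 12 of 12 at -0.82 and of ATP synthase 12 of 14 at -0.55. The 38 tested Nduf subunit genes, at -0.68, and the 35 outside the Ndufa4 pair and Ndufb4c, at -0.69, lay within this range. Differences between the complexes were not tested.

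Markers of cell types moved with these changes. The adipocyte markers were present in all libraries, Fabp4 with 4519.7 to 9985 CPM and Adipoq with 558 to 865, as the label of adipocytes states, whereas Ucp1, the defining brown and beige marker, had at most 0.26 CPM. All 10 adipocyte markers had log2 fold changes below 0 in TD relative to WT, with a median of -0.47. Of them 8 were called lower, against 14.2% of all tested genes. Their sum ran from 19357 to 21876 CPM in WT, 18253 to 22982 in TA and 13518 to 15492 in TD. Of the 38 subunit genes 34 had a log2 fold change below that median, and of the 8 Ndufaf genes 3. In bulk RNA, fewer cells of a type and less RNA per cell cannot be told apart.

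Of the 10 markers of preadipocytes and fibroblasts 8 were called higher in TD relative to WT, against 15.1% of all tested genes, with a median of 0.91. Their sum ran from 4649 to 5544 CPM in WT, 4741 to 8253 in TA and 7259 to 9979 in TD. All 8 endothelial markers were called higher, against the same 15.1%, with a median of 1.35. In TA relative to WT 4 of the 8 were called higher, against 6.72% of all tested genes, with a median of 0.81. Sums were 40.8 to 78.3 CPM in WT, 63.2 to 110.2 in TA and 126.0 to 163 in TD. All 12 tested markers of skeletal muscle, of 14 listed, were called higher in TD relative to WT, against the same 15.1%, with a median of 4.72. In TA relative to WT 7 of the 12 were, against the same 6.72%, with a median of 2.65. With WT levels near 0, muscle genes could pass the filter on low counts through the mutant libraries alone. The share over all tested genes is thus no fair measure for these counts. Sums were 5.55 to 14.7 CPM in WT, 21.8 to 84.6 in TA and 21 to 312 in TD. Myog was at 0 in every WT library and Myod1 in all but 3 of the 12 libraries. The 8 macrophage markers were not called in TD relative to WT, with a median of 0.33 and 2 higher at an unadjusted p under 0.05. In TD relative to TA 3 of the 8 were called higher, against 7.33% of all tested genes, with a median of 1.03. At an unadjusted p under 0.05, 7 were higher there. The share of all tested genes higher at that threshold was not tallied in either comparison. In TA relative to WT all 8 macrophage markers had values below 0, with a median of -0.68. Of these, 3 were lower at an unadjusted p under 0.05, against 11.2% of all tested genes. Their sum ran from 270.0 to 781 CPM in WT, 131 to 572 in TA and 604 to 839 in TD. Of the brown and beige markers 3 of 4 tested, of 6 listed, were called lower in TD relative to WT, against 14.2% of all tested genes. The sum of the listed ones ran from 37 to 69.1 CPM in WT, 59.6 to 82.5 in TA and 21 to 24.5 in TD.

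Within TA, replicate 3, lowest in the summed subunit level, was highest of its genotype in the preadipocyte and fibroblast sum and lowest in the adipocyte sum, and replicate 2 was highest in the subunit and adipocyte sums and lowest in the preadipocyte and fibroblast sum. The part of these cell type differences in the fall of the complex I genes was not tested.

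**Figure D5:**
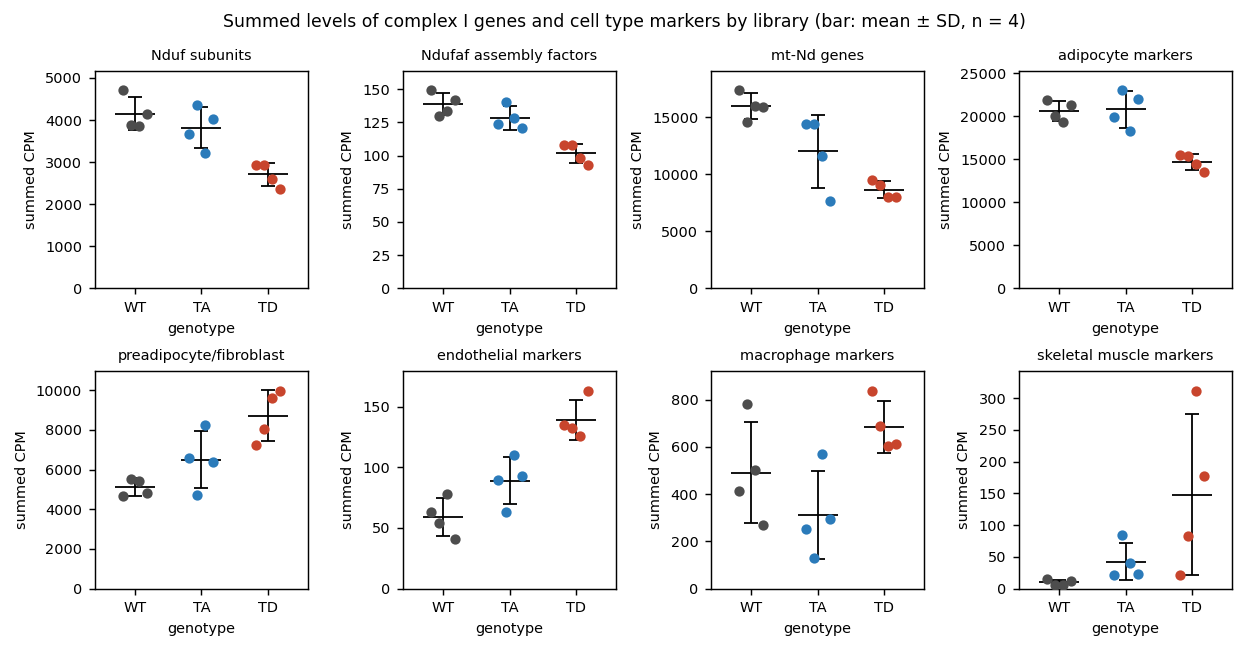
Summed CPM by genotype (x axis) of the Nduf subunits, the Ndufaf factors, the mt-Nd genes and 5 lists of cell type markers, with points for libraries and a bar for the mean ± SD (n = 4). The sums of subunits, Ndufaf factors and adipocyte markers are lowest in the 4 TD libraries, and those of endothelial markers are highest there.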

How the data were processed

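RNA-seq of adipocytes differentiated from the inguinal stromal vascular fraction of WT, TA and TD mice gave 12 libraries, 4 per genotype, grouped by the genotype in the labels. The deposited values are raw counts per gene, for which the authors trimmed reads with cutadapt 1.9.1, aligned them to GRCm38 with HISAT2 2.0.1 and counted them with HTSeq 0.6.1, per the submitters' processing notes. The methods name Ensembl release 97. How HTSeq treated strand and overlapping genes is not given in the sources used here. The counts of the 12 library files equal those of the joint table. Coordinates, exon lengths and overlaps came from GENCODE M21 on GRCm38, which held 55394 of the 55573 gene identifiers, and promoter windows from RefSeq.

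All 12 libraries were fitted together with edgeR 4.0.16 (TMM factors of 0.957 to 1.04, filterByExpr with a minimum count of 10 and minimum total of 15, quasi-likelihood test). P-values were adjusted by Benjamini-Hochberg over the 15117 genes tested, with a threshold of 0.05, and the common biological coefficient of variation was 12.9%. DESeq2 1.42.0, median-ratio size factors, library totals, other filters, fits of 2 genotypes, a replicate block and leaving out each library were tried as alternatives. Software was R 4.3.3 with limma 3.58.1, and Python 3.11.15 with pandas 2.3.3, numpy 2.4.6 and matplotlib 3.10.9.

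The members and the gene lists were chosen with earlier results of these data known, so the lists carry counts and medians but no test of their own. Values in every library were given for the core subunits, for the largest and smallest fall of each module, for Ndufa4 and Ndufa4l2, for each Ndufaf factor and for the mt-Nd genes. The values of 1 tested member are not reported here, and it is included in the counts, medians and sums. Fold changes were added for each member that went against its list or shared exon bases with another gene. Of the motifs, each was searched as exact letters on both strands.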

Additional observations from a re-analysis of the deposited data

Results flagged for a closer look

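Among 159 groups of 4 libraries of the Nduf and mt-Nd genes, 2 held a library far from the other 3 by Dixon's test, where chance flags about 1 group in 20. Ndufa6 had 112.7 CPM in WT replicate 1, above the other WT libraries. Ndufb4 had 4.63 CPM in TD replicate 3, above the other TD libraries.

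Both rows set aside for the ending -ps held reads. Ndufb1-ps had 6730 counts in all, and RefSeq names this locus Ndufb1, a protein-coding subunit of the distal membrane arm. Its log2 fold change in TD relative to WT was -0.67 (edgeR's quasi-likelihood test, Benjamini-Hochberg adjusted p = 0.000921), and Cpsf2 shares 12.7% of its exon bases on the opposite strand. Ndufab1-ps had 1129 counts, may share reads with Ndufab1, and was not called. With Ndufb1-ps counted as the distal arm's Ndufb1, the arm would have 12 genes.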

How the results depend on the processing

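In TD relative to WT the subunit genes called lower numbered 34 to 36 of 38 under every alternative listed, and in TD relative to TA 28 to 37, lowest without TA replicate 2. Assembly factors called lower in TD relative to WT numbered 4 to 7 when libraries were left out, with 4 without WT replicate 1 or TD replicate 4, and in TD relative to TA 1 to 3, with 3 also under DESeq2. In TA relative to WT the subunit genes called lower went from 0 to 1 under DESeq2 or library totals, to 5 without the filter on low counts, and to between 0 and 3 when libraries were left out. Called higher there were 1 without the filter and 0 to 1 with a library left out. The assembly factor called lower there was lost, leaving 0, in the fit of 2 genotypes and with the replicate block, and the count was 0 to 1 with a library left out, at a median of -0.17 to -0.053 (the latter without TA replicate 4). The cause of these shifts was not tested. Signs turned, with a shift of more than 1 standard error, for Ndufb4 in TA relative to WT and for Ndufa4l2 in TD relative to TA. With a library left out Ndufb4 ran from -0.13 (without TA replicate 2) to 0.22, and Ndufa4l2 from -0.18 to 0.086, positive without TA replicate 4. Of 2622 values of single genes under an alternative, 73 lost a call, 28 gained one and 2 turned in this way. The other 2519 kept their side of the threshold. Among these, uncalled genes could turn sign by a smaller shift, as Ndufa4l2 did in TA relative to WT (-0.22 to 0.041 with a library left out).

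Deviations of same-numbered libraries correlated at -0.24 to 0.20 over 12 pairs, and those of differently numbered ones at -0.26 to 0.26 over 36. These values cannot show whether same-numbered libraries were prepared together, which the labels do not state. With the replicate block 36 subunit genes were called lower in TD against either genotype, and 6 assembly factors against WT. With the protein-coding members alone, chosen after seeing the data, 35 subunit genes were called lower in both. Over all genes, 667 were called lower in TA relative to WT, 992 without the filter and 448 in the fit of 2 genotypes. Ndufb4c, Ndufaf6, mt-Nd3 and mt-Nd4l had low counts, and Ndufs3 and Ndufs6b could not be tested.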

Other observations

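The other respiratory complexes were also compared with TA. In TD relative to TA, 4 of 4 genes of complex II were called lower, against 9.37% of all tested genes, at a median log2 fold change of -0.48. Of complex III 8 of 9 were lower, at -0.53, of complex IV 12 of 12, at -0.71, and of ATP synthase 11 of 14, at -0.47. In TA relative to WT, 1 of 12 genes of complex IV was called lower, against 4.41% of all tested genes. No gene of complexes II and III or ATP synthase was called by edgeR. Of these complexes 1, 2 and 1 genes were lower at an unadjusted p under 0.05, against 11.2% of all tested genes. DESeq2 was not tallied for these lists. The preadipocyte and fibroblast markers had a median of 0.66 in TA relative to WT, with 7 of 10 called higher. In TD relative to TA their median was 0.04, with 3 of 10 called higher. Over all tested genes 6.72% and 7.33% were called higher in these 2 comparisons.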
